A study of Rattus norvegicus with 30 samples.

Results

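The collagen genes of the rat lung were followed here across severe acute pancreatitis and its treatment with emodin or dexamethasone (DEX). They were taken as every protein-coding row whose symbol has the form Col, a number, the letter a and a number, which gave 43 of the 22914 rows of the count table, or 42 symbols because Col23a1 has 2 rows. Total RNA from lung tissue of 30 male Sprague Dawley rats, 8 weeks old when purchased, was sequenced as poly(A) mRNA, with 3 rats in each of 10 groups. Severe acute pancreatitis (SAP) was induced by infusing 5% sodium taurocholate into the biliopancreatic duct, and lungs were compared at 6 and 24 hours after the operation. Con rats received sterile saline in place of taurocholate, and Sham rats had an operation in which the pancreas was slightly rotated. DEX and Emo rats received taurocholate as well, then DEX, a synthetic glucocorticoid, at 10 mg/kg into a vein, or emodin, an anthraquinone from rhubarb, by stomach tube, at 2 hours and, in the 24-hour groups, again at 12 hours. The labels give the emodin dose as 40 mg/kg in the protocol and as 10 mg/kg in the sample descriptions, so the dose is not settled here. All rats were fasted and given pentobarbital, and groups without a drug received its vehicle.

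Collagens are secreted proteins whose chains wind into a triple helix, and they carry most of the tensile load of the lung. Fibrillar chains (types I, II, III, V, XI, XXIV and XXVII) pack into fibrils around airways and vessels and in alveolar walls, whereas type IV chains form the sheet-like network of basement membranes beneath epithelium and endothelium. Type VI chains form beaded filaments near cells, and the fibril-associated collagens sit on fibrils and space them. Fibroblasts, smooth muscle cells and pericytes are the main known sources of fibrillar and type VI chains, and endothelial and epithelial cells of type IV chains.

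Reads assigned to genes ranged from 16813949 to 34692306 per library, and collagen genes took 0.329% to 1.06% of them. The share was 0.535% to 1.06% in the 15 libraries taken at 6 hours and 0.329% to 0.725% in the 15 taken at 24 hours. The 3 SAP-24h rats, at 0.329%, 0.378% and 0.413%, lay below all Sham-24h rats (0.483% to 0.725%) and all Con-24h rats (0.508% to 0.707%). The 2 highest libraries, at 1.01% and 1.06%, were of Emo-6h rats, and the other Emo-6h rat was at 0.864%, within the range of the other 6-hour groups. Lung markers were present in every library, with the summed FPKM (fragments scaled to transcript length and to the mapped fragments of the library) of 7 alveolar type 2 cell markers at 25000 or above and that of 8 heart muscle markers between 2.75 and 258.

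**Figure D1:**
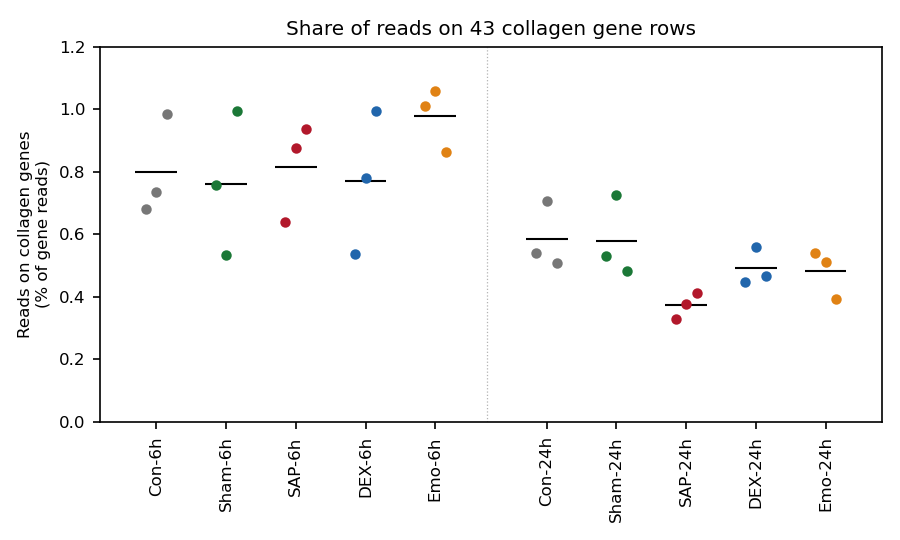
Share of gene reads that fell on the 43 collagen rows (vertical axis, %) in each rat, by group (horizontal axis), with points for rats and lines for the mean of 3 rats. The 3 SAP-24h rats sit between 0.329% and 0.413%, below the Sham-24h and Con-24h rats.

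Col3a1, the chain of type III fibrils, was the most abundant member (mean over 30 rats, 274 FPKM), followed by the basement membrane chain Col4a1 (215 FPKM), the type I chain Col1a1 (112 FPKM), the type VI chain Col6a2 (109 FPKM), Col4a2 (105 FPKM) and Col6a1 (83.7 FPKM). These 6 genes made up 84.7% of the summed mean FPKM of all collagen rows. Of the 43 rows, 12 had a mean of at least 10 FPKM and 20 had a mean under 1 FPKM. The membrane-spanning chain Col13a1 (21.8 FPKM), the fibril-associated chain Col16a1 (16.7 FPKM) and Col18a1, the precursor of endostatin (10.9 FPKM), stood among the more abundant members, and Col17a1, a chain of epithelial hemidesmosomes, was at 1.64 FPKM.

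Not every chain could be followed. Col1a2, which pairs with Col1a1 in type I collagen, was counted at a mean of only 0.408 FPKM (5 to 138 reads per library), and Col1a1 exceeded it 166-fold to 472-fold in each library on the FPKM scale. Whether reads of Col1a2 were lost in mapping or counting was not tested, so its level is given as counted and its changes rest on few reads. Col15a1 had 2 reads in all libraries together, whereas a separate row outside the symbol rule, described as collagen alpha-1(XV) chain-like, had 245 to 1856 reads per library. No row carried the symbol Col4a3 or Col6a3, and a row described as collagen alpha-3(IV) chain-like had 939 to 3723 reads. Of the 43 rows, 38 passed the filter on low counts and were tested. The other 5 were Col9a1, Col15a1, Col19a1, Col25a1 and the second row of Col23a1, each with 67 reads or fewer in all.

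A gene was called when edgeR's quasi-likelihood test gave a Benjamini-Hochberg adjusted p under 0.05 over 15934 genes and the fold change was at least 2. Over 21 comparisons, 20 of the 38 tested members were called at least once, 18 never were, and 49 of the 63 calls were of lower levels. The comparisons share groups, and the direction of a call follows which group is named first. The share of all genes called is given with each comparison and not for these pooled counts, which are therefore a tally only. Fold changes are from the counts, on the log2 scale, with their standard error (SE), and levels are FPKM. Groups of 3 rats often do not overlap in FPKM. Of all tested genes, 29.4% did not in SAP-24h vs Sham-24h. That share ran from 8.62% in Emo-24h vs Sham-24h to 47.7% in Emo-24h vs Emo-6h. Lack of overlap is therefore given below as a description only. The labels number 3 lung samples in each group without naming the animals, so p-values measure the spread between these samples, each called a rat here.

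At 6 hours few members were called. No member was called in SAP-6h vs Sham-6h, where 0.22% of all genes were, and 1 had an unadjusted p under 0.05 in edgeR (DESeq2 called 0). No member was called in DEX-6h vs SAP-6h (0.515% of all genes called, 6 members under 0.05 unadjusted, 0 by DESeq2) or in Emo-6h vs SAP-6h (0.0251% of all genes, 1 member unadjusted, 0 by DESeq2). Col27a1, a short fibrillar chain of developing cartilage and other tissues, was called lower in Emo-6h vs Sham-6h, where 0.264% of all genes were called lower. Its levels were 0.18, 0.18 and 0.09 FPKM in Emo-6h and 0.42, 0.40 and 0.23 FPKM in Sham-6h, a log2 change of -1.19 (SE 0.33, edgeR adjusted p = 0.0455). The groups did not overlap, but the call was lost in 4 of 6 fits without one library. In DEX-6h vs Sham-6h no member was called (3.97% of all genes called, 4 members under 0.05 unadjusted, 0 by DESeq2).

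Col26a1, a chain with few reads, was called higher in Emo-6h than in DEX-6h (0.759% of all genes called higher; edgeR adjusted p = 0.0238). It had 11, 12 and 31 reads in the Emo-6h libraries and 0, 3 and 2 in the DEX-6h libraries, a ratio of 11.7 after scaling (exact 95% interval 4.72 to 37.5, which covers counting error only and not the spread between rats), and DESeq2 and 3 of 6 fits without one library did not call it. No member was called in Sham-6h vs Con-6h (0% of all genes; 1 member under 0.05 unadjusted in edgeR, 0 by DESeq2) or in SAP-6h vs Con-6h (0.163% of all genes; 0 members unadjusted in edgeR, 0 by DESeq2). The median log2 change over the 38 members was 0.31 in Emo-6h vs Sham-6h, with 31 above 0, and 0.28 in Emo-6h vs DEX-6h, with 30 above 0, where the medians over all genes were -0.01 and 0.01. These medians rested on single libraries: the first was 0.12 without Emo-6h rat 2 and 0.15 without Sham-6h rat 2, and the second was 0.08 without DEX-6h rat 1 and 0.17 without Emo-6h rat 2. In Emo-6h vs Sham-6h, 9 of 10 smooth muscle and pericyte markers were above 0 and 7 of 8 heart muscle markers below 0. In Emo-6h vs DEX-6h, 8 of 8 heart muscle markers were below 0, 5 of 5 mesothelial markers were above 0, and fibroblast markers summed to 501 to 543 FPKM and 354 to 411 FPKM, without overlap. No marker of these lists was called, and their part was not tested.

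At 24 hours, 6 members were lower in SAP-24h than in Sham-24h and none was higher. The called genes were 15.8% of the tested members, beside 3.01% of all genes called lower in this comparison, and they comprised the fibrillar chains Col3a1 and Col1a2, 3 type VI chains (Col6a4, Col6a5 and Col6a6) and the low-count Col26a1. The median log2 change over the 38 members was -0.57, compared with -0.03 over all genes, and 31 of 38 were below 0. In bulk tissue, fewer cells of a type and less RNA per cell cannot be told apart.

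Col3a1 was counted at 28.5, 51.2 and 80.5 FPKM in the SAP-24h rats and at 232, 354 and 161 FPKM in the Sham-24h rats. All SAP-24h rats lay below all Sham-24h rats, and the level was 4.35-fold lower (log2 change -2.12, SE 0.48, edgeR adjusted p = 0.00743). Col1a2, at 0.03, 0.08 and 0.12 FPKM against 0.30, 0.40 and 0.32 FPKM, fell by 1.99 on the log2 scale (SE 0.49, edgeR adjusted p = 0.0112). Its call was lost without SAP-24h rat 1. Col1a1, the major type I chain, was not called: it was at 7.33, 34.2 and 52.5 FPKM in SAP-24h and 77.3, 85.1 and 70.5 FPKM in Sham-24h, a log2 difference of -1.22 (edgeR adjusted p = 0.126, interval -2.31 to -0.13). Its groups did not overlap, and the SAP-24h rats differed among themselves by more than the Sham-24h rats did.

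The 3 long type VI chains Col6a4, Col6a5 and Col6a6 each resemble the alpha3(VI) chain and can take its place in the filament. Col6a5 was at 3.61, 1.72 and 2.29 FPKM in SAP-24h and at 9.19, 14.4 and 6.80 FPKM in Sham-24h, 3.61-fold lower (log2 -1.85, SE 0.43, edgeR adjusted p = 0.00889). Col6a6, at 0.11, 0.19 and 0.23 FPKM against 1.09, 1.48 and 0.68 FPKM, was 5.65-fold lower (log2 -2.50, SE 0.53, edgeR adjusted p = 0.00504). Col6a4, at 0.24, 0.10 and 0.14 FPKM against 1.65, 1.50 and 0.79 FPKM, was 7.38-fold lower (log2 -2.88, SE 0.56, edgeR adjusted p = 0.00278). For each of the 3 genes the groups stood apart without overlap, but the call of Col6a5 was lost without Sham-24h rat 2. The common type VI chains were not called: the log2 difference was -0.25 for Col6a1 (edgeR adjusted p = 0.469, interval -0.70 to 0.20) and -0.47 for Col6a2 (edgeR adjusted p = 0.257, interval -1.03 to 0.09).

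Col26a1 had 3 reads in all 3 SAP-24h libraries and 25 in Sham-24h, a ratio of 0.113 after scaling to library size (exact 95% interval 0.0218 to 0.369, counting error only). Its call (edgeR adjusted p = 0.0457) was lost in every one of 6 fits without one library. The basement membrane chains were not called: Col4a1 had a log2 difference of 0.23 (edgeR adjusted p = 0.509, interval -0.21 to 0.66) and Col4a2 one of 0.15 (edgeR adjusted p = 0.714). When the 2 groups were fitted on their own, with fewer libraries to estimate the spread, none of the 6 calls remained, and Col3a1 then had an adjusted p of 0.0865.

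Against the saline-infused Con-24h rats, which were set beside the same SAP-24h rats, 6 members were lower in SAP-24h (15.8% of those tested, 3.26% of all genes called lower). Col6a4 was at 1.89, 1.88 and 1.59 FPKM in Con-24h and was 10.1-fold lower in SAP-24h (log2 -3.34, SE 0.57, edgeR adjusted p = 0.000641), with no overlap. Col3a1 (log2 -1.75, edgeR adjusted p = 0.0116) and Col6a5 (log2 -1.62, edgeR adjusted p = 0.0103) did not overlap either. Col6a6 (log2 -1.88, edgeR adjusted p = 0.0142) and Col1a2 (log2 -1.82, edgeR adjusted p = 0.0106) were called although their groups overlapped, and Col26a1 had 28 reads in Con-24h. The count was 1 with the groups fitted alone, 1 without Con-24h rat 2 and 3 without SAP-24h rat 1, and Col6a4 was called in all 6 fits without one library. Smooth muscle and pericyte markers summed to 592 to 1070 FPKM in Con-24h and 325 to 492 FPKM in SAP-24h (10 of 10 below 0, 0 called), endothelial markers to 1950 to 2600 and 1350 to 1500 FPKM (5 of 6 below 0, Kdr called), alveolar type 1 markers to 2750 to 3700 and 1370 to 2670 FPKM (5 of 6 below 0, Aqp5 called) and neutrophil markers to 95 to 949 and 4430 to 16300 FPKM (6 of 6 called higher). None of these sums overlapped, and their part in the collagen changes was not tested.

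In Sham-24h vs Con-24h no member was called (1 with an unadjusted p under 0.05 in edgeR, 0 by DESeq2), and 1% of all genes were.

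**Figure D2:**
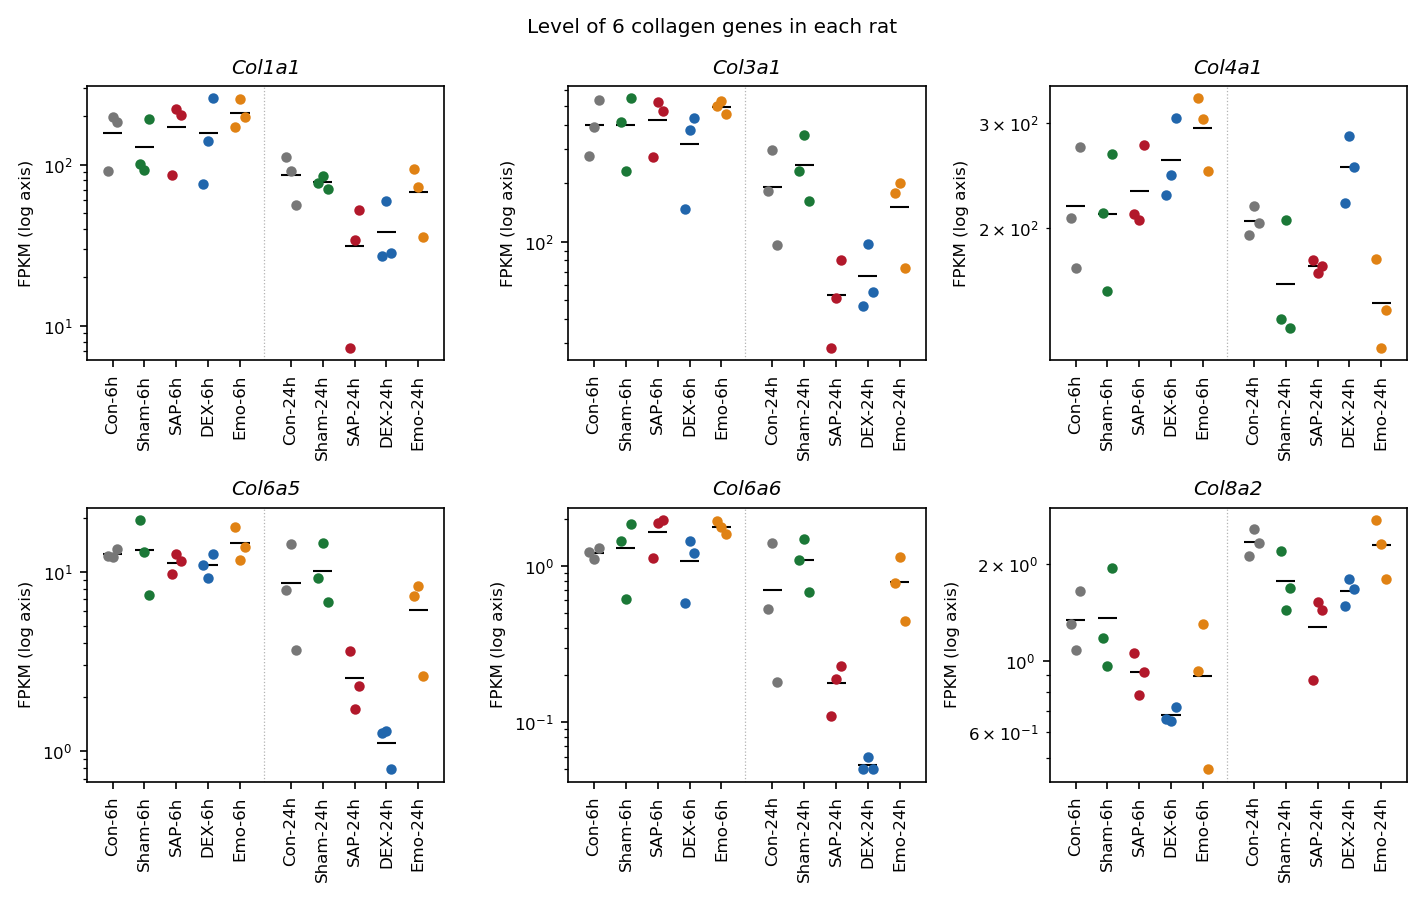
FPKM (log axis) of 6 collagen genes in each rat, by group, with points for rats and lines for the mean of 3 rats. Col3a1, Col6a5 and Col6a6 are lower in the SAP-24h and DEX-24h rats than in the Sham-24h rats, whereas Col4a1 is not.

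Other matrix genes were tested beside the chains in SAP-24h vs Sham-24h, where 3.01% of all genes were called lower and 1.98% higher. Among 19 tested fibril partners and other matrix genes, 8 were lower in SAP-24h than Sham-24h (Postn, Tnc, Lum, Fmod, Bgn, Fbln5, Efemp1 and Mfap4) and 1 was higher (Thbs1). Lum and Fmod, small proteoglycans that bind fibrils and limit their width, had log2 changes of -1.88 (SE 0.53, edgeR adjusted p = 0.0236) and -1.70 (SE 0.36, edgeR adjusted p = 0.00469), and Postn, which binds type I collagen, fell by 2.10 (SE 0.41, edgeR adjusted p = 0.00273). Of 12 procollagen processing and crosslinking genes, Pcolce and Pcolce2, enhancers of propeptide removal, were lower and Lox, the enzyme that starts crosslinks, was higher (log2 1.08, SE 0.30, edgeR adjusted p = 0.0213). Only P4ha1, a subunit of prolyl 4-hydroxylase, was called among 20 genes of collagen folding, as higher, and 0 of 16 basement membrane partners and 0 of 10 collagen receptors were called. Of 10 collagenases and inhibitors only Timp1, an inhibitor of matrix metalloproteinases, was called, and it rose by 2.66 on the log2 scale (SE 0.42, edgeR adjusted p = 0.000938). Of 13 TGF-beta ligands, receptors and targets, the ligand Tgfb2 was higher (log2 1.32, SE 0.20, edgeR adjusted p = 0.00079) and the target Ctgf lower (log2 -1.56, SE 0.37, edgeR adjusted p = 0.0101).

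Markers of the cells that make collagen were measured beside these genes. Of the 10 fibroblast markers and of the 10 smooth muscle and pericyte markers, 0 were called in SAP-24h vs Sham-24h. Fibroblast markers had a summed FPKM of 624 to 918 in the SAP-24h rats, and in the Sham-24h rats of 420 to 631, but their median log2 change was 0.05 with 4 of 10 below 0. Inmt alone was at 516, 208 and 197 FPKM after SAP, beside 97.2, 92.3 and 190 FPKM for Sham-24h. Smooth muscle and pericyte markers summed to 325 to 492 after SAP, beside 614 to 847 for Sham-24h, and 10 of 10 were below 0 in log2 change. Heart muscle markers were below 0 in 8 of 8 (median log2 -1.38, 0 called) and alveolar type 1 markers in 5 of 6, with Aqp5 called lower. The 6 neutrophil markers summed to 4430 to 16300 FPKM after SAP, beside 193 to 9240 for Sham-24h. The part of these shifts in the collagen changes was not tested.

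In DEX-24h vs SAP-24h no member was called in edgeR (3.73% of all genes called), 6 members had an unadjusted p under 0.05, and DESeq2 called 4. DEX-24h rats had 0.05, 0.06 and 0.05 FPKM of Col6a6, below the SAP-24h rats in every case, with a log2 difference of -1.77 (edgeR adjusted p = 0.0720). Col12a1, a fibril-associated chain of tissues under tension, was at 4.34, 5.91 and 7.20 FPKM in DEX-24h and at 3.38, 2.68 and 2.96 FPKM in SAP-24h. Its log2 change of 0.85 (SE 0.24, edgeR adjusted p = 0.0299) did not reach 2-fold. Fibroblast markers summed to 277 to 337 FPKM in DEX-24h, below every SAP-24h and Sham-24h rat, and 3 of 10 were called lower than in SAP-24h. Between DEX-24h and SAP-24h, neutrophil markers (1010 to 2970 and 4430 to 16300 FPKM, 6 of 6 below 0), smooth muscle and pericyte markers (523 to 673 and 325 to 492 FPKM) and endothelial markers (1550 to 1840 and 1350 to 1500 FPKM) did not overlap either, and 6 of 6 alveolar type 1 markers were above 0. Of the endothelial markers, Cldn5, Kdr and Tek were higher in DEX-24h without overlap in FPKM, whereas Cdh5, Tie1 and Ramp2 overlapped. The part of these shifts in the collagen values was not tested.

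In DEX-24h vs Sham-24h, 6 members were lower (15.8% of those tested, 3.16% of all genes called lower): Col3a1, Col27a1, Col6a4, Col6a5, Col6a6 and Col14a1. Col6a6 was 19.2-fold lower (log2 -4.26, SE 0.60, edgeR adjusted p = 0.000246), and Col6a5, at 1.26, 1.29 and 0.79 FPKM in DEX-24h, was 8.84-fold lower (log2 -3.14, SE 0.46, edgeR adjusted p = 0.000304). Col6a6 had 15, 14 and 12 reads in the DEX-24h libraries, so the size of its fold change rests on few reads. Col14a1, a fibril-associated chain that regulates fibril growth, was at 0.72, 0.71 and 0.76 FPKM in DEX-24h and 5.48, 3.06 and 2.36 FPKM in Sham-24h, 4.80-fold lower (log2 -2.26, SE 0.55, edgeR adjusted p = 0.0136), with no overlap. Col4a1 went the other way: it was at 220, 285 and 253 FPKM in DEX-24h and at 141, 206 and 136 FPKM in Sham-24h, a log2 change of 0.69 that passed the adjusted p (0.0456 in edgeR) but not 2-fold. Without one library, the call of Col3a1 was lost in 3 of 6 fits, that of Col14a1 in 4 of 6 and that of Col27a1 in 5 of 6, and without DEX-24h rat 1 or rat 3 the count of 6 became 3. Fibroblast markers summed to 277 to 337 FPKM in DEX-24h and 420 to 631 FPKM in Sham-24h (8 of 10 below 0, 0 called), smooth muscle and pericyte markers were below 0 in 8 of 10 (0 called), and Sftpb of the alveolar type 2 markers was called higher. The part of these shifts was not tested.

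In Emo-24h vs SAP-24h, 3 members were higher (7.89% of those tested, 1.93% of all genes called higher), namely Col6a6, Col6a4 and Col11a2, and none was lower. The median over the 38 members was 0.67 on the log2 scale, and 33 of 38 were above 0. Col6a6 was at 0.77, 1.14 and 0.44 FPKM in Emo-24h against 0.11, 0.19 and 0.23 FPKM in SAP-24h, 3.96-fold higher (log2 1.99, SE 0.53, edgeR adjusted p = 0.0246), and no rats overlapped. Col6a4, at 1.00, 0.15 and 0.78 FPKM, was 3.58-fold higher than in SAP-24h (log2 1.84, SE 0.55, edgeR adjusted p = 0.0406), and its Emo-24h rat 2 lay within the SAP-24h range. Col11a2, a fibrillar chain best known from cartilage, was at 0.82, 0.43 and 0.80 FPKM against 0.26, 0.23 and 0.27 FPKM (log2 1.28, SE 0.37, edgeR adjusted p = 0.0360). Col3a1 had a log2 difference of 1.35 that was not called (edgeR adjusted p = 0.0718).

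These 3 calls rested on single libraries: the count fell to 0 without Emo-24h rat 1, to 0 without SAP-24h rat 2 and to 1 without SAP-24h rat 1, and to 0 when the 2 groups were fitted alone. DESeq2 called 5 members. Heart muscle markers summed to 104 to 200 FPKM in Emo-24h and 3.25 to 118 FPKM in SAP-24h, with 8 of 8 above 0 in log2 change, and smooth muscle and pericyte markers to 562 to 805 and 325 to 492 FPKM. Of 4 airway cartilage markers, 0 were below 0 in log2 change (median 1.51) and Comp was called higher, with sums of 2.47 to 5.67 FPKM in Emo-24h and 2.20 to 3.07 FPKM in SAP-24h. Sox9 made up most of these sums, at 5.12, 2.18 and 2.81 FPKM in Emo-24h and 2.98, 2.42 and 2.11 FPKM in SAP-24h. In the other direction, 6 of 6 neutrophil, 5 of 5 mesothelial and 6 of 7 alveolar type 2 markers were below 0, and the fibroblast marker Pdgfra was called lower. The part of these shifts in the collagen values, Col11a2 included, was not tested. In Emo-24h vs Sham-24h no member was called, and none of the 15934 genes was (0% of all genes); 3 members had an unadjusted p under 0.05 in edgeR, and DESeq2 called 0 members.

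The drugs were set side by side in Emo-24h vs DEX-24h. Here 6 members were higher in Emo-24h (15.8% of those tested, 3.82% of all genes called higher): Col5a3, Col11a2, Col27a1, Col6a4, Col6a5 and Col6a6. Col6a6 was 13.5-fold higher (log2 3.75, SE 0.60, edgeR adjusted p = 0.000511) and Col6a5, at 7.27, 8.31 and 2.61 FPKM against 1.26, 1.29 and 0.79 FPKM, was 5.11-fold higher (log2 2.36, SE 0.44, edgeR adjusted p = 0.00187). Col5a3, a chain of the type V fibrils, was at 0.77, 0.75 and 0.56 FPKM in Emo-24h and 0.15, 0.13 and 0.28 FPKM in DEX-24h (log2 1.81, SE 0.40, edgeR adjusted p = 0.00592). Col6a5, Col6a6 and Col5a3 did not overlap between the groups and were called in all 6 fits without one library. The size of the Col6a6 change rests on few reads, 15, 14 and 12 in the DEX-24h libraries. Col4a1 was lower in Emo-24h than in DEX-24h, at 178, 126 and 145 FPKM against 220, 285 and 253 FPKM, by 0.83 on the log2 scale (SE 0.21, edgeR adjusted p = 0.0148), which is under 2-fold. The count was 3 without DEX-24h rat 2 and 3 without DEX-24h rat 3. Col6a4, Col27a1 and Col11a2 each lost their call in 4 or 5 of the 6 fits. Fibroblast markers summed to 572 to 834 FPKM in Emo-24h and 277 to 337 FPKM in DEX-24h, without overlap, with 8 of 10 above 0 in log2 change and Inmt and Lsp1 called higher. Of the 10 smooth muscle and pericyte markers Notch3 was called higher, and the neutrophil markers summed to 4260 to 6590 FPKM in Emo-24h and 1010 to 2970 FPKM in DEX-24h. Of 8 heart muscle markers, 0 were below 0 (median log2 0.80, 0 called), and Sftpb of the alveolar type 2 markers was called lower. The part of these shifts in the collagen differences was not tested.

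**Figure D3:**
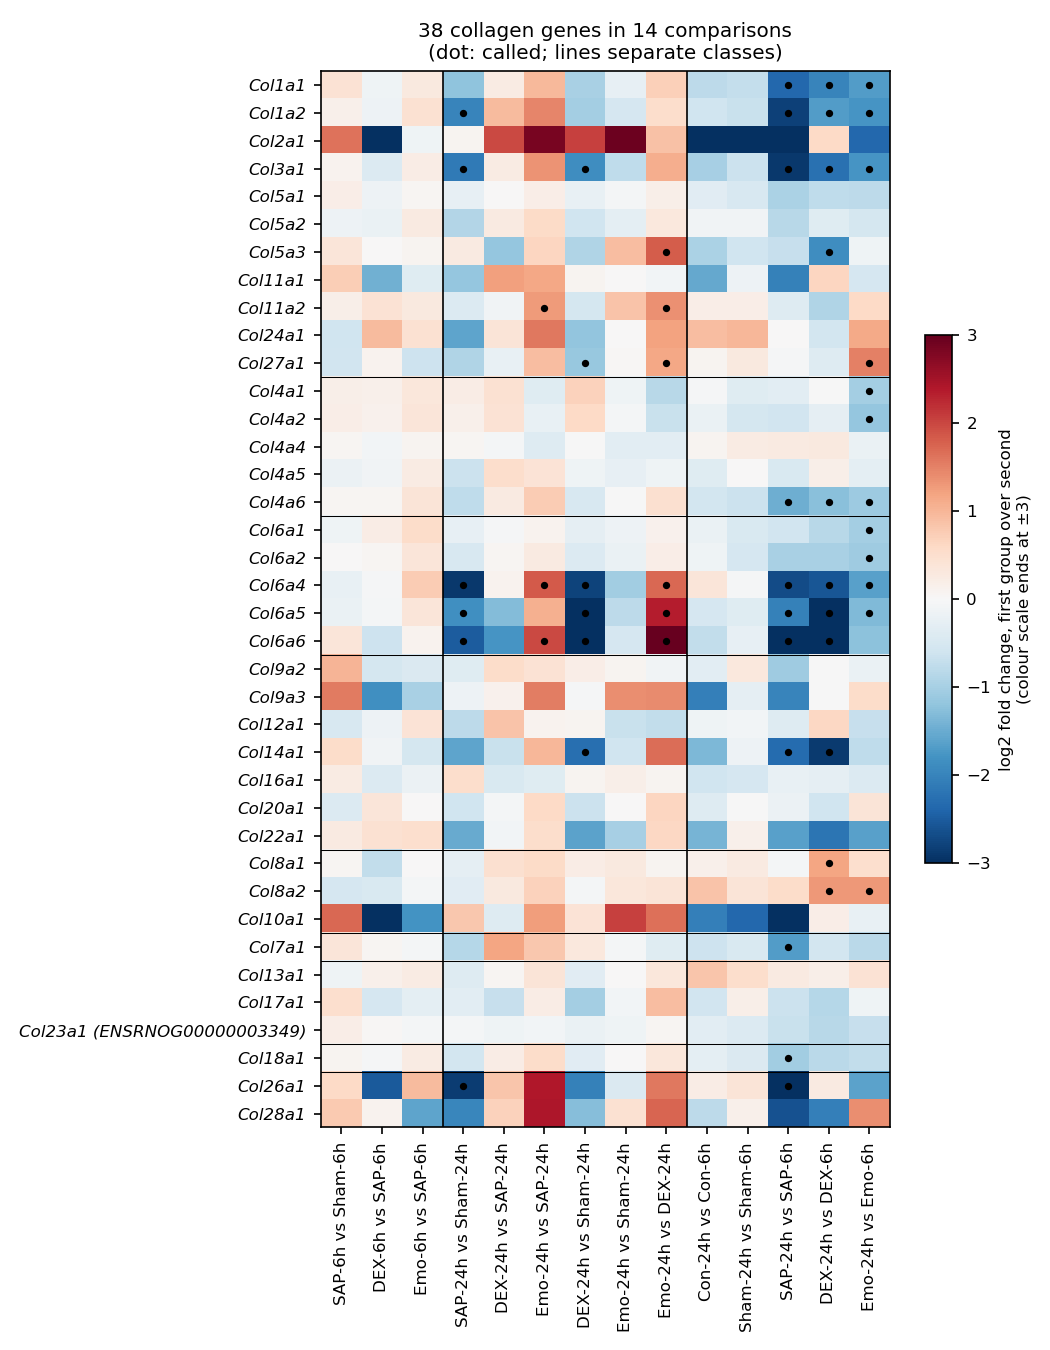
Log2 fold change of the 38 tested collagen genes (rows, by structural class) in 14 comparisons (columns; colour scale ends at 3 and -3), with a dot where a gene was called. Dots gather in the type I, III and VI chains in the 24-hour and 24h-vs-6h columns, whereas no dots stand in the first 3 columns.

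More members were called between 6 and 24 hours within each taurocholate group than in any comparison at 1 time. In SAP-24h vs SAP-6h, 11 members were lower and none higher (28.9% of those tested, 1.74% of all genes called lower). One of the 11 was Col26a1 (3 reads in SAP-24h and 27 in SAP-6h, edgeR adjusted p = 0.0499), which no fit without one library called, and the count was 7 when SAP-24h and SAP-6h were fitted alone. DEX-24h vs DEX-6h had 9 lower and 2 higher (23.7% and 5.26%, beside 3.91% and 3.23% of all genes), and Emo-24h vs Emo-6h had 10 lower and 2 higher (26.3% and 5.26%, beside 3.08% and 6.33% of all genes). Sham-24h vs Sham-6h and Con-24h vs Con-6h had none (0.257% and 0.00628% of all genes called in either direction; 5 and 8 members with an unadjusted p under 0.05 in edgeR, and 0 by DESeq2 in both). Over the 38 members, the median log2 change with time was -0.35 in Con and -0.20 in Sham, with 29 and 25 members below 0. It was -0.96 in SAP, -0.57 in DEX and -0.69 in Emo, with 34, 28 and 29 below 0. Medians over all genes lay between -0.009 and 0.035. The time changes of DEX and Emo were not compared directly with those of Sham or Con. Col1a1, Col1a2, Col3a1, Col4a6, Col6a4 and Col6a5 were called lower at 24 hours in each of the 3 taurocholate groups. Some of these calls were lost without one library. Col4a6 in SAP, Col1a1 and Col1a2 in DEX, and Col6a4 and Col6a5 in Emo were called in 4 of 6 such fits. Col4a6 in DEX and Emo and Col1a1 in Emo were called in 5 of 6.

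Cell markers moved over the same hours. In SAP, smooth muscle and pericyte markers summed to 558 to 673 FPKM at 6 hours and 325 to 492 FPKM at 24 hours (10 of 10 below 0 in log2 change, 0 called), endothelial markers to 1810 to 2250 and 1350 to 1500 FPKM, and neutrophil markers to 1930 to 4380 and 4430 to 16300 FPKM, each without overlap. The endothelial list did not move together in SAP: Cldn5, Ramp2 and Tie1 were lower at 24 hours without overlap. Tek was higher, at 70.8, 86.7 and 87.5 FPKM in SAP-6h and 98.6, 101 and 96.2 FPKM in SAP-24h, and Kdr and Cdh5 overlapped. Smooth muscle and pericyte markers were below 0 in 10 of 10 in DEX (Cnn1 called) and in 9 of 10 in Emo (Actg2 called), where they summed to 924 to 1180 FPKM at 6 hours and 562 to 805 FPKM at 24 hours. Fibroblast markers summed to 354 to 411 FPKM in DEX-6h and 277 to 337 FPKM in DEX-24h, and to 501 to 543 FPKM in Emo-6h and 572 to 834 FPKM in Emo-24h, without overlap in either, whereas SAP-6h (442 to 648 FPKM) and SAP-24h overlapped. Their median log2 changes were 0.13 in SAP, -0.02 in DEX and 0.31 in Emo. In Emo, neutrophil markers went from 1300 to 3740 FPKM at 6 hours to 4260 to 6590 FPKM at 24 hours, mesothelial markers from 56.8 to 79.3 FPKM to 26.9 to 40.3 FPKM (5 of 5 below 0, Msln called) and alveolar type 1 markers from 2730 to 3090 FPKM to 1740 to 2580 FPKM, each without overlap. The part of these shifts in the collagen changes was not tested.

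Col1a1 went from 86.3, 222 and 203 FPKM in SAP-6h to 7.33, 34.2 and 52.5 FPKM in SAP-24h, 5.14-fold lower (log2 -2.36, SE 0.54, edgeR adjusted p = 0.0141). The call of Col1a1 was lost when the 2 groups were fitted alone (adjusted p up to 0.135 over all alternatives). Col3a1 went from 272, 522 and 468 FPKM to 28.5, 51.2 and 80.5 FPKM, 7.40-fold lower (log2 -2.89, SE 0.50, edgeR adjusted p = 0.00301). No SAP-24h rat reached the lowest SAP-6h rat for either gene. In DEX the 2 genes fell by 1.99 (Col1a1, edgeR adjusted p = 0.00925) and 2.23 (Col3a1, edgeR adjusted p = 0.00226), and in Emo by 1.68 (Col1a1, edgeR adjusted p = 0.0174) and 1.77 (Col3a1, edgeR adjusted p = 0.00640). In Sham the log2 differences were -0.71 for Col1a1 (edgeR adjusted p = 0.467) and -0.65 for Col3a1 (edgeR adjusted p = 0.453). In Con they were -0.795 for Col1a1 (edgeR adjusted p = 0.631) and -0.995 for Col3a1 (unadjusted p = 0.0434, edgeR adjusted p = 0.454).

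In DEX, Col6a5 and Col6a6 were far lower at 24 than at 6 hours. Col6a5 was at 10.9, 9.23 and 12.6 FPKM in DEX-6h and at 1.26, 1.29 and 0.79 FPKM in DEX-24h, 9.60-fold lower (log2 -3.26, SE 0.46, edgeR adjusted p = 6.1e-05). Col6a6 was 19.3-fold lower (log2 -4.27, SE 0.60, edgeR adjusted p = 6.1e-05), a size that rests on 15, 14 and 12 reads in the DEX-24h libraries. Both genes were well apart between the times, and both were called in all 6 fits without one library. Col4a6, a minor type IV chain of the X chromosome, fell by 1.46 in SAP (edgeR adjusted p = 0.0124), by 1.26 in DEX (edgeR adjusted p = 0.00730) and by 1.10 in Emo (edgeR adjusted p = 0.0112).

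Other members were called over time in 1 or 2 of the 3 taurocholate groups. In Emo, the type IV pair Col4a1 and Col4a2 fell by 1.02 (SE 0.21, edgeR adjusted p = 0.000862) and 1.15 (SE 0.23, edgeR adjusted p = 0.000804), and Col6a1 and Col6a2 by 1.03 and 1.07 (edgeR adjusted p = 0.00111 and 0.00428). Col4a1 was at 330, 305 and 249 FPKM in Emo-6h and 178, 126 and 145 FPKM in Emo-24h, without overlap. Several of these Emo changes lay near the 2-fold cut. Of 6 fits without one library, 4 called Col4a1, 4 called Col6a1 and 5 called Col6a2. Their smallest log2 changes in those fits were -0.92, -0.96 and -0.99. Col18a1 and Col7a1, the anchoring fibril chain, were called lower in SAP (log2 -1.05 and -1.67, edgeR adjusted p = 0.00593 and 0.0136). Col18a1 also had adjusted p-values under 0.05 in DEX (log2 -0.81, edgeR adjusted p = 0.00527) and Emo (log2 -0.74, edgeR adjusted p = 0.00636), below 2-fold. Col14a1 was 7.29-fold lower with time in DEX (log2 -2.87, SE 0.56, edgeR adjusted p = 0.00108) and 4.92-fold lower in SAP (log2 -2.30, SE 0.55, edgeR adjusted p = 0.0171), where the call was lost in 3 of 6 fits without one library (adjusted p up to 0.137 over all alternatives). It had a log2 difference of -0.76 in Emo (edgeR adjusted p = 0.271). Col5a3 went from 0.64, 0.49 and 0.98 FPKM to 0.15, 0.13 and 0.28 FPKM in DEX (log2 -1.87, SE 0.40, edgeR adjusted p = 0.00197), with no overlap.

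The short-chain network genes Col8a1 and Col8a2, which form hexagonal lattices around endothelium, rose with time in DEX, and Col8a2 in Emo as well. Members called higher over time were 5.26% of those tested in both DEX and Emo. This was near the share of all genes called higher, 3.23% in DEX and 6.33% in Emo. Col8a2 was at 0.66, 0.65 and 0.72 FPKM in DEX-6h and at 1.48, 1.80 and 1.67 FPKM in DEX-24h (log2 1.30, SE 0.29, edgeR adjusted p = 0.00271), and it rose by 1.31 on the log2 scale in Emo (SE 0.29, edgeR adjusted p = 0.00151). Without calls, Col8a2 was also above 0 with time in Con (log2 0.85, edgeR adjusted p = 0.263), SAP (0.55, 0.235) and Sham (0.39, 0.464). Col8a1 rose by 1.18 in DEX (SE 0.26, edgeR adjusted p = 0.00223). Of 6 fits without one library, 4 called Col8a1 in DEX and 5 called Col8a2 in Emo. Col27a1 rose by 1.50 from Emo-6h to Emo-24h (SE 0.33, edgeR adjusted p = 0.00133), where Emo-24h rats were at 0.39, 0.50 and 0.42 FPKM.

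The 18 tested members that were never called covered most classes. They were the fibrillar chains Col2a1, Col5a1, Col5a2, Col11a1 and Col24a1, the basement membrane chains Col4a4 and Col4a5, the fibril-associated chains Col9a2, Col9a3, Col12a1, Col16a1, Col20a1 and Col22a1, the hypertrophic cartilage chain Col10a1, the membrane-spanning chains Col13a1, Col17a1 and Col23a1, and Col28a1. Among the abundant ones, Col4a4, a chain of the glomerular and alveolar basement membrane, ranged from 19.3 to 38.9 FPKM over all rats and had a log2 difference of 0.06 in SAP-24h vs Sham-24h (edgeR adjusted p = 0.882). Col5a1, which nucleates type I fibrils, ranged from 2.68 to 10.3 FPKM. It had adjusted p-values under 0.05 with time in SAP, DEX and Emo (log2 -0.94, -0.77 and -0.79, edgeR adjusted p = 0.0436, 0.0408 and 0.0287), all below 2-fold. Col17a1 ranged from 0.27 to 3.15 FPKM and had a log2 difference of -0.31 in SAP-24h vs Sham-24h (edgeR adjusted p = 0.678).

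The difference between the SAP effect at 24 and at 6 hours was tested directly as an interaction, and no member was called (0.0314% of all genes; 12 members with an unadjusted p under 0.05 in edgeR, 2 called by DESeq2). Col6a6 had the log2 interaction of -2.86 (edgeR adjusted p = 0.139) and Col6a4 of -2.66 (edgeR adjusted p = 0.173). The DEX interaction, in which Col6a6 had a log2 value of -1.15 (edgeR adjusted p = 0.538), called 0 members (0.138% of all genes; 8 unadjusted in edgeR, 0 by DESeq2) and the emodin interaction 0 (1.68% of all genes; 5 unadjusted in edgeR, 2 by DESeq2). A change called at 24 and not at 6 hours is therefore not shown to differ between the times. The SAP interaction is also the difference between the time changes of SAP and Sham. A change over time called in SAP and not in Sham is thus equally not shown to differ (edgeR adjusted p = 0.354 for Col1a1 and 0.183 for Col3a1).

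Chains that assemble into 1 molecule, and the type I and type III chains Col1a1 and Col3a1, which form separate molecules but share fibrils, were compared from rat to rat after the group mean of log2(FPKM + 1) was removed. Of 8 pairs with both chains counted, 7 were correlated over the 30 libraries with adjusted p-values under 0.05 by permutation within groups. The values of a library share its depth and scaling, which bear on every pair. Col4a1 and Col4a2, partners in the common type IV heterotrimer, had r = 0.857 and rho = 0.852 (permutation p = 1e-05 for each, the smallest 100000 permutations can give; adjusted p = 2e-05 and 3e-05), with r = 0.965 at 6 hours and 0.629 at 24 hours and r = 0.843 without the 2 libraries farthest from the median of Col4a1. Col1a1 and Col3a1 had r = 0.836 and rho = 0.820 (permutation p = 1e-05 and 3e-05; adjusted p = 2e-05 and 5e-05), 0.875 at 6 hours and 0.810 at 24 hours, and 0.830 without the 2 farthest libraries. Col6a1 and Col6a2 had r = 0.864 and rho = 0.848 (permutation p = 1e-05 and 4e-05; adjusted p = 2e-05 and 5e-05), and 0.829 without the 2 farthest.

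The other pairs were Col1a1 with Col1a2 (r = 0.749, rho = 0.822, 0.832 without the 2 farthest libraries), Col4a5 with Col4a6 (r = 0.843, rho = 0.852, 0.825) and Col5a1 with Col5a2 (r = 0.817, rho = 0.814, 0.772), each with permutation p-values of 6e-05 or lower. Col8a1 with Col8a2 was weaker (r = 0.412, rho = 0.483, permutation p = 0.0104 and 0.0138, adjusted p = 0.0119 and 0.0158) and fell to r = 0.328 without the 2 farthest libraries. Col9a1 with Col9a2 had r = 0.487 and rho = 0.215 (permutation p = 0.166 and 0.408), and r dropped to 0.157 without Emo-6h rat 2 and SAP-6h rat 2, so that relation rests on those libraries.

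**Figure D4:**
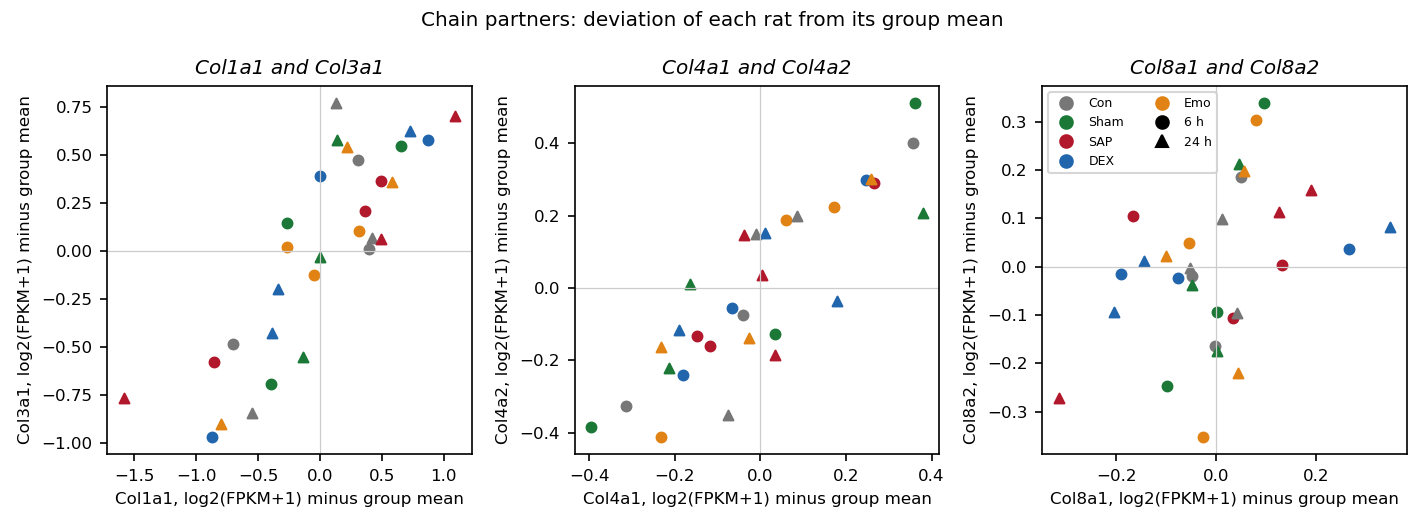
Deviation of each rat from its group mean in log2(FPKM + 1) for 3 pairs of chains, colour by group, circles for 6 hours and triangles for 24 hours. Points of Col1a1 with Col3a1 and of Col4a1 with Col4a2 run along a line (r = 0.836 and 0.857), and those of Col8a1 with Col8a2 scatter (r = 0.412).

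The Col4a1 and Col4a2 genes lie head to head on chromosome 16, so that 1 stretch separates the 2 starts. In the rat GRCr8 assembly (RefSeq), 76 bases lie between them, chr16:84885521-84885596, shown from the Col4a2 side to the Col4a1 side on the plus strand because both chains varied together from rat to rat. Pairs on separate chromosomes also varied together (Col1a1 with Col3a1, r = 0.836, and Col5a1 with Col5a2, r = 0.817). Whether the shared stretch bears on the correlation was not tested. The motifs searched on both strands were the CCAAT box, the GC box GGGCGG and the TATA box TATAAA. Capitals mark the only match, a GC box on the minus strand, 16 bases before the Col4a1 start. It is 78.9% G or C, beside a median of 51.2% over the 250 bases before the start in 33469 windows.
Col4a2 to Col4a1: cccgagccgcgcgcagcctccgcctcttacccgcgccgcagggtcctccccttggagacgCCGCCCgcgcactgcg

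The genes of the long type VI chains are neighbours as well, in the order Col6a6, Col6a5, Col6a4 on chromosome 8 with no protein-coding gene between them, all on the minus strand of the assembly. The 250 bases before each start are given because these 3 genes were called most often, in 7 or 8 of 21 comparisons each. Col6a5 has 2 start windows in the RefSeq table, of which the first listed is shown. Coordinates are chr8:115352162-115352411 for Col6a6, chr8:115462845-115463094 for Col6a5 and chr8:115611842-115612091 for Col6a4 (GRCr8, RefSeq, minus strand). Capitals mark motif matches: CCAAT in Col6a4 and Col6a5, and GGGCGG on the other strand in Col6a6.
Col6a6: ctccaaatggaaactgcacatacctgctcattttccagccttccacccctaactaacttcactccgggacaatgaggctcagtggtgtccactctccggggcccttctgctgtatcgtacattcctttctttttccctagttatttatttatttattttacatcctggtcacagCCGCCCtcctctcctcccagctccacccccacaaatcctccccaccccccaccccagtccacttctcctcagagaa
Col6a5: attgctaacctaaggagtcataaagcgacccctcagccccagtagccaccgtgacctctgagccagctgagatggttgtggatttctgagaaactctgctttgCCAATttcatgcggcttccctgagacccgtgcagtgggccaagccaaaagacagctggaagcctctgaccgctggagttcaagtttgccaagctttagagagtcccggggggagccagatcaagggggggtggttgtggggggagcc
Col6a4: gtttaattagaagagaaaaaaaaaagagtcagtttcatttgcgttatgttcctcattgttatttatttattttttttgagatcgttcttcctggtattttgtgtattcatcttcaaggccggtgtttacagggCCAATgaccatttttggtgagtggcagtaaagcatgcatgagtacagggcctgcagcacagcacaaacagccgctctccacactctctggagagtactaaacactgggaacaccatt

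CCAAT was found in 34.0% of all windows, GGGCGG in 30.5% and TATAAA in 12.9%. Among the 33 of 42 collagen symbols with a window, 11 held CCAAT, 18 held GGGCGG and 4 held TATAAA. A match is a run of letters and not a measured site.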

How the data were processed

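Paired reads were, per the study's methods, clipped, filtered and mapped uniquely to the Ensembl rat genome with TopHat2, and bcl2fastq and edgeR are also named in the submitters' processing notes. The authors deposited raw read counts per gene (22914 genes) and FPKM values (22907 genes, rounded to 2 decimals). The study's read statistics list other uniquely mapped shares for Sham and Con libraries than for taurocholate libraries. The shares of SAP-24h, DEX-24h and Emo-24h libraries also differ, without overlap. So do those of DEX-6h and DEX-24h, of Emo-6h and Emo-24h, and of DEX-6h and SAP-6h. In comparisons between such groups, the DEX and Emo time comparisons included, mapped share cannot be told apart from the group.

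Counts were tested in R 4.3.3 with edgeR 4.0.16 (filterByExpr, minimum count 10 and total 15; TMM; a quasi-likelihood fit of 10 groups over 30 libraries with 20 residual degrees of freedom; Benjamini-Hochberg adjustment over 15934 genes). DESeq2 1.42.0, other size factors, no filter, no fold minimum, the compared groups alone, a replicate block and leaving out each library were the alternatives. Correlations, with 100000 permutations within groups, used Python 3.11.15, numpy 2.4.6 and pandas 2.3.3. FPKM was used for levels, with a pseudocount of 1 on the log scale. The steps were tested on simulated data. No pair of libraries of a group agreed within counting noise (chi-square per degree of freedom of 35.4 or more).

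The collagen genes, the other gene lists and the tests were chosen with earlier results of these data known. Values were given for core chains (such as the type I, III, IV and VI chains, Col14a1, Col17a1 and Col18a1) and for members called in a comparison. They were also given for Col12a1 and for cartilage chains that were high in single libraries. Other members were given by range, count, correlation or name. Same-numbered rats deviated together above 0.1 in all 3 pairs in DEX-24h vs DEX-6h only (correlations of 0.21, 0.22 and 0.23), where a replicate block left the count of called members at 11.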

Additional observations from a re-analysis of the deposited data

How the results depend on the processing

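The count of called members depended on the fit. With the compared groups alone, it went to 0 in SAP-24h vs Sham-24h, Emo-24h vs SAP-24h, Emo-6h vs Sham-6h and Emo-6h vs DEX-6h, to 1 in SAP-24h vs Con-24h and DEX-24h vs SAP-24h and to 7 in SAP-24h vs SAP-6h. DESeq2 gave 0 in Emo-6h vs DEX-6h, 4 in DEX-24h vs SAP-24h, 5 in Emo-24h vs SAP-24h and 2 in each of the SAP and emodin interactions. No filter on low counts gave 0 in Emo-6h vs Sham-6h. With no fold minimum, 1 was called in DEX-6h vs Sham-6h and 1 in DEX-24h vs SAP-24h. The cause of these differences was not tested. With a replicate block, counts became 0 in Emo-6h vs Sham-6h and 1 in DEX-24h vs SAP-24h. Same-numbered libraries were in general not paired (median correlation -0.00648, 33 of 135 over 0.1).

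Leaving out 1 library gave 4 to 6 called members in SAP-24h vs Sham-24h, 1 to 8 in SAP-24h vs Con-24h, 0 to 1 in DEX-24h vs SAP-24h, 0 to 2 in Emo-24h vs SAP-24h, 3 to 6 in DEX-24h vs Sham-24h, 3 to 5 in Emo-24h vs DEX-24h, 8 to 11 in SAP-24h vs SAP-6h, 9 to 13 in DEX-24h vs DEX-6h and 8 to 12 in Emo-24h vs Emo-6h. At 6 hours the range was 0 to 1 in Emo-6h vs Sham-6h, DEX-6h vs Sham-6h and Emo-6h vs DEX-6h, and in the emodin interaction 0 to 2. No called change reversed in any alternative, and the 8 chain correlations kept their side of the threshold with a pseudocount of 0.1 and with log2 CPM. Some members, such as Col26a1, had few reads, and the cause of their lost calls was not tested.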

Other observations

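Cartilage chains were high in single libraries. Col2a1, the cartilage fibril chain, was at 1.30 FPKM in Emo-6h rat 2, 1.10 in SAP-6h rat 2 and 0.78 in Con-6h rat 3, and at 0.45 or lower in the other libraries. Col10a1, a chain of hypertrophic cartilage, was at 0.98 FPKM in SAP-6h rat 2, and Col9a3 at 1.03 FPKM in Con-6h rat 2. The cartilage marker Matn1 was at 0.43 FPKM in SAP-6h rat 2, 0.16 in Sham-6h rat 2, 0.14 in Emo-6h rat 2 and 0.11 in each of Con-6h rats 2 and 3. In SAP-6h rat 2, Comp (0.83 FPKM), Acan (0.16) and Hapln1 (0.08) were above their means of 0.216, 0.025 and 0.0183. Matn3 was at 0.04 there (mean 0.031). Sox9 (mean 2.42 FPKM) was at 1.78 there, 1.86 in Emo-6h rat 2 and 2.76 in Sham-6h rat 2. Con-6h rats 2 and 3 had 2.24 and 1.92 FPKM of Sox9. The 6 markers summed highest in Emo-24h rat 1 (5.7 FPKM), where Sox9 alone was at 5.12 FPKM. Neither Col2a1, Col10a1 nor Col9a3 was called in any comparison, and the part of airway cartilage in the samples was not tested.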
